A study of Mus musculus with 17 samples.

Results

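The mature microRNAs (miRNAs) described here are the 3p arms of a numbered block of mouse miRNAs, miR-6896 to miR-7094, most of which lie in introns. They were chosen by name alone, as rows named mmu-miR-N-3p with a number N in that range, and 150 of the 1487 small RNAs (smRNAs) of the table met that rule. They were measured in exosomes, the small vesicles that cells release, isolated from feces of mice lacking interleukin 10 (IL-10 KO) on a C57BL/6J background, which develop bowel inflammation. The mice were obtained at 4 weeks of age and housed singly, feces were collected weekly, and the ages at the start-point and end-point are not given in the labels. There were 10 start-point libraries from 10 IL-10 KO mice (7 male, 3 female) and 7 end-point libraries from 6 of those mice (5 libraries from males, 2 from females), since end-point libraries 1 and 2 both carry the label of mouse 1. Every library came from IL-10 KO animals, so the comparison is between times in knockout mice, and wild-type mice were not analysed here.

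A mirtron is a miRNA whose precursor is released by splicing of a short intron rather than by the nuclear enzyme Drosha. In a tailed mirtron only 1 end of the hairpin meets a splice site, and the rest of the intron is trimmed away. Where the hairpin ends at the 3′ end of the intron, the 3p arm ends at the splice acceptor, which reads AG and follows a run of pyrimidines. Dicer then cuts the hairpin, and either arm can be loaded into an Argonaute protein, where bases 2 to 8, the seed, pair with target mRNAs.

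Of the 8 arms with the smallest p among those higher at the end-point, 7 had these RefSeq sequences, written 5′ to 3′ with the seed and, where present, a terminal AG in capitals. The AG shows how the mature RNA ends where the intron ends.
miR-7012-3p: uGACCUGUggcuccucucccAG
miR-7071-3p: cUGACGUCucgguucccgcAG
miR-6915-3p: cAACUUCCuuccucgugcccAG
miR-7020-3p: aACCCCUCucuucucucccAG
miR-7074-3p: uAGGCCUUcuccucucccugcAG
miR-6959-3p: cUGCACCGaccugcucucccAG
miR-6941-3p: cUAACUCGgcugcucccaaAG
Of the 8 arms with the smallest p among those lower at the end-point, 7 are shown. The arms miR-6955-3p, miR-6977-3p and miR-7084-3p do not end in AG.
miR-7084-3p: gCCUCUGAccccuguccucugc
miR-6943-3p: cUGCUUCCauaccccuacccAG
miR-7042-3p: uGUCCCUUuguuuucucucAG
miR-6960-3p: aGCCAACCaccucucuccucAG
miR-7011-3p: uCUGCUUCccuccuccucuAG
miR-6955-3p: aCACCUGUcuccuuugcccaca
miR-6977-3p: aAGGCGUUgccugacccugacc
On GRCm38.p6, miR-7012-3p lies at chr3:90270191-90270212 on the plus strand, in an intron of Dennd4b. The 3p arm of miR-6959 lies at chr15:89305658-89305679 on the minus strand in an intron of Sbf1, and that of miR-7084 at chr9:22113951-22113972 on the minus strand in an intron of Elof1. All 14 arms shown lay in introns of protein-coding genes.

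A sequence was found for 136 of the 150 members, of which 134 had 1 genomic position. All 134 lay on the sense strand of an intron of a protein-coding gene in GENCODE vM21 (132 host genes), with Ankrd52 and Srebf1 each hosting a pair. The last base of the 3p arm was the last base of the intron in 102 of the 134 (76.1%) and lay within 2 bases of it in 125 (93.3%). For comparison, 198 of 353 other 3p miRNAs of the table with 1 position were in introns, and 17 of the 353 (4.82%) ended at an intron's last base. Lettered miRNAs of the block do not meet the naming rule and count among the others here and below. They include miR-6973a-3p, miR-6973b-3p and miR-7036a-3p, and the last pair of these end at an intron's last base. Where transcripts differed, the nearest intron end downstream was used, and 15 members also overlapped an exon of some transcript. These positions come from the annotation and not from the counts.

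**Figure D1:**
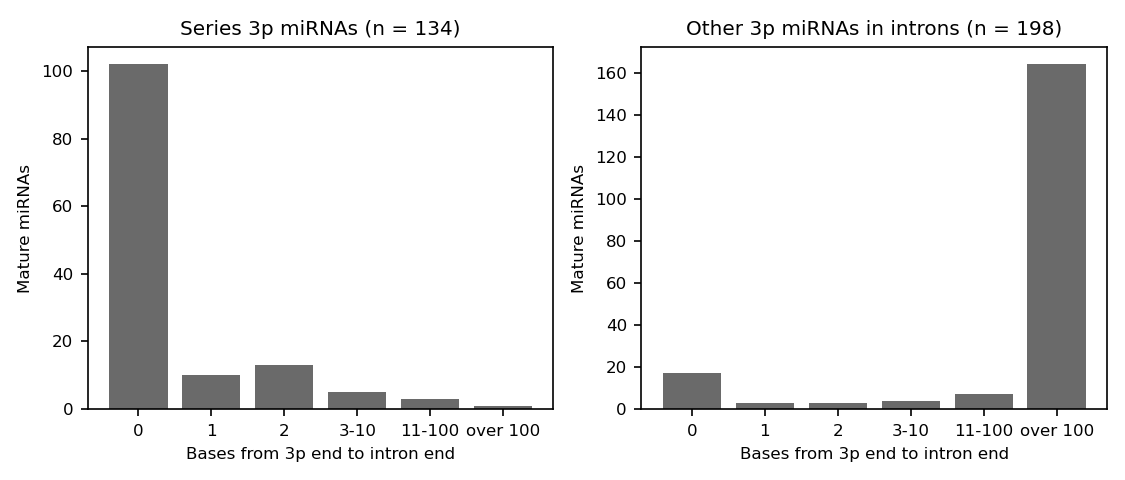
Bars give the number of mature miRNAs (vertical axis) by the number of bases from the end of the 3p arm to the end of its intron (horizontal axis, in bins) for the members on the left and other intronic 3p miRNAs on the right. The members gather at 0 bases (102 of 134), whereas 17 of 198 others do.

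The terminal AG and the pyrimidines of a splice acceptor were visible in the sequences. Of the 136 members with a sequence, 105 (77.2%) ended in AG, against 46 of 361 (12.7%) other 3p miRNAs and 12 of 159 5p arms of the same series. Pyrimidines made up a median of 72.7% of a member's bases, against 54.5% in other 3p miRNAs and 31.8% in the 5p arms of the series. The members were 18 to 25 bases long.

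Whole-intron hairpins were few. Among 119 members within 2 bases of the acceptor whose 5p arm also had a position, the 5p arm began within 2 bases of the intron's first base in 7, in introns of 74 to 96 bases. The hosts were Dbn1, Hspg2 (perlecan), Cherp, Fbxw9, Raver1, Mst1 and Dnase1l1. In the other 112 a 5′ stretch of the intron lay outside the hairpin arms, with a median of 510.5 bases. These 112 were thus placed like tailed mirtrons. The hairpins of miR-7018 and miR-7068 show the first kind and that of miR-7012 the second, with both arms in capitals.
miR-7018 hairpin: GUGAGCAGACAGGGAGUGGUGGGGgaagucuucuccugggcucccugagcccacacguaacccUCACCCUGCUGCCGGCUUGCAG
miR-7068 hairpin: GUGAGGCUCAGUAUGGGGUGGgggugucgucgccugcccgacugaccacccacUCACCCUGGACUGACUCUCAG
miR-7012 hairpin: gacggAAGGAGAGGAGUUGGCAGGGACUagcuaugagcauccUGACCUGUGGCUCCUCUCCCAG
Both of the first begin with the GUGAG of a splice donor and end with the AG of the acceptor. The hairpin of miR-7012 starts inside its intron and ends at the acceptor. The 9 members further than 2 bases from the acceptor included miR-7025-3p, 745 bases away in an intron of Pdgfra, and miR-6977-3p, 19 bases away in an intron of Ptprs. These 9 were not in the count of whole-intron hairpins. Yet the hairpin of miR-7080 fills its 67-base intron of Cpne7, with the 3p arm ending 4 bases before the acceptor. The hairpins of miR-6927, miR-6936 and miR-6977 begin at the first base of their introns and end before the acceptor.

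Few members shared a seed. The 136 sequences held 131 distinct seeds, and 4 seeds were shared among 9 members. The triplet miR-7018-3p, miR-7023-3p and miR-7068-3p and the pair miR-7048-3p and miR-7077-3p are shown because each group holds a member described for its level or its call. In the other shared seeds, CUGUUCU (miR-6932-3p and miR-7039-3p) had no member called (edgeR adjusted p 0.208 and 0.09), and CUGAGCU had miR-6945-3p called lower (edgeR adjusted p 0.01) and miR-6927-3p not called (0.083).
miR-7018-3p: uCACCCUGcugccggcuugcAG
miR-7023-3p: uCACCCUGucugcgccccucAG
miR-7068-3p: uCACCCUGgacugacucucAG
miR-7048-3p: uCUUCCAUucucuuuccccAG
miR-7077-3p: cCUUCCAUggcuccuggcAG
The first 3 share the seed CACCCUG and the last pair CUUCCAU. Only 6 members had the seed of a miRNA in the table outside the members.

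Total counts ranged from 87527 to 178075 in the start-point libraries and from 32320 to 161862 in the end-point libraries, and end-point libraries 1, 3 and 7 held fewer than 75000. Levels are given as CPM, the counts per 1000000 counts of the library, and 3 counts correspond to 16.8 CPM in the deepest and 92.8 CPM in the shallowest library. Since feces collect RNA from many cell types, fewer cells of a type and less RNA per cell cannot be told apart. Of the miRNAs that mark intestinal epithelium, 9 of 10 were listed, and their summed level was 3778 to 19932 CPM at the start-point and 3032 to 38181 CPM at the end-point (3 rose, 4 fell). Leukocyte markers (5 of 7 listed) summed to 911 to 3690.1 CPM and 457 to 3234 CPM, with 1 higher and 1 lower of 4 tested. Red cell markers (2 of 3 listed) summed to 149 to 1006 CPM and 12.4 to 529.6 CPM. Muscle markers (3 of 5 listed) summed to 399.97 to 2169 CPM and 334 to 12136 CPM, with 1 higher and 1 lower of 3 tested. The part of these markers in the members' levels was not tested.

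The members together made up 10.1% of the table's rows and 15.8% of its counts. Their median level, at a mean of 238 CPM over all libraries, was near the 233 CPM of all smRNAs. Of the 150, 17 averaged at least 1000 CPM, 24 averaged under 100 CPM, and 78 had counts in every library. A single member, miR-6979-3p, held 41.7% of all counts of the members, and the top 3 held 57.6%.

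At the start-point the members took 11.3% of a library's counts at the lowest, 17.8% at the median and 30.6% at the highest. At the end-point the corresponding values were 6.69%, 10.6% and 20.9%. The means were 19.0% ± 6.96 (SD, n = 10) and 11.3% ± 4.92 (SD, n = 7) in turn, a difference of -7.69 percentage points. The groups overlapped, and the highest end-point library was library 3, which had the fewest counts.

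That difference lay in miR-6979-3p. Its own share averaged 9.53% in the start-point libraries (SD 7.54, n = 10) and 0.955% in the end-point libraries (SD 0.743, n = 7). Without it, the other members held 9.50% ± 2.18 and 10.4% ± 5.21, a difference of 0.890 percentage points that is within the spread. Its sign rested on end-point library 3, at 20.7%. Without that library, an alternative chosen after seeing the data, the end-point mean was 8.68% and the difference -0.828 percentage points. These shares are sums over chosen members and were not tested. The 5p arms of the series held 10.3% (SD 3.30) in the start-point and 14.5% (SD 3.23) in the end-point libraries.

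**Figure D2:**
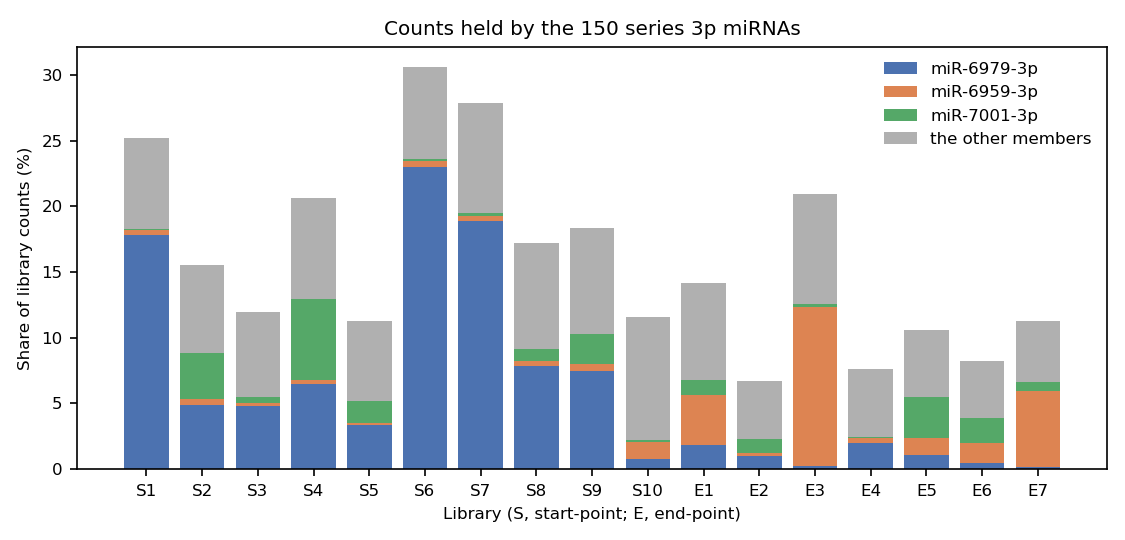
Each bar is 1 library (S, start-point; E, end-point) and its height is the percentage of the library's counts held by the 150 members, split into miR-6979-3p, miR-6959-3p, miR-7001-3p and the other members. The section of miR-6979-3p is tall in most start-point libraries (up to 23.0%) and small in every end-point library (at most 1.98%), where miR-6959-3p is largest in libraries 3, 7 and 1.

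Fewer members were detected at the end-point when libraries were drawn to an equal 32320 counts. Detection was not counted over all smRNAs, so the drop is not shown to be particular to the members. At least 1 count was seen for 138.9 members in start-point libraries (SD 5.55, n = 10, range 129 to 149) and for 120 in end-point libraries (SD 8.33, n = 7, range 108 to 132). The groups overlapped, and end-point libraries 1 and 3, both shallow, were the lowest. With at least 3 counts required, the mean difference was -28.9 rather than -18.9 members, and the lowest were the deeper end-point libraries 2 (69 members), 4 (77) and 6 (87), below the shallow libraries 1 (88), 7 (92) and 3 (98).

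Which members differed between the times was tested with edgeR's quasi-likelihood test, with Benjamini-Hochberg adjustment over all 1270 smRNAs that passed a filter on low counts. This test treats every library as separate, the pair from mouse 1 included. Of the 150 members, 133 passed, and the 17 that did not had at most 131 counts in any library. At an adjusted p under 0.05, 43 of the 133 (32.3%) differed, 18 higher and 25 lower at the end-point. The background was close to that, since 33.7% of all smRNAs tested were called, 17.4% higher and 16.3% lower. The median log2 fold change was -0.21 over the members and -0.18 over all smRNAs tested. The 5p arms of the series gave 59 of 167 (35.3%) and other 3p miRNAs 128 of 347 (36.9%).

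With mouse as a block, 15 members were called, 4 higher and 11 lower, all of which were among the 43. The background with the block was 8.19% of smRNAs, 3.78% higher and 4.41% lower. The 28 members that lost their call kept their direction and had adjusted p from 0.0651 to 0.428. The libraries' scaling mattered for the split. With library totals in place of TMM factors, 11 members were higher and 34 lower, and with limma-voom 9 and 29. All 25 members lower in the main test stayed so with library totals, whereas 11 of the 18 higher ones did. With library totals the median over all smRNAs tested was -0.65 on the log2 scale, so the direction of small changes depends on the scaling. The shares of all smRNAs called in these alternatives are not given, so the split is not read as particular to the members.

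Calls were spread over the position classes. Of 90 tested members that end at the acceptor 29 were called, as were 6 of 21 that end 1 or 2 bases before it, 2 of 9 further away and 6 of 13 without a position. The CPM of the 2 times did not overlap in 13 of the 133 members tested, against 5.59% of all smRNAs tested.

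Among the members higher at the end-point, miR-7012-3p, from an intron of Dennd4b (a regulator of Rab GTPases), had the smallest p. It was at 21.5 CPM at the lowest, 134 CPM at the median and 240.2 CPM at the highest in the start-point libraries. In the end-point libraries it was at 137, 2083 and 8416 CPM, with 5 of 7 above every start-point library. The highest values came from shallow libraries 3 and 1, and the deeper libraries 2 and 4 lay inside the start-point range. The log2 fold change of miR-7012-3p was 4.30 ± 0.53 (SE), with an adjusted p of 3.15e-06 in edgeR's quasi-likelihood test, and of 0.0128 with the mouse block. The level rose in all 6 mice sampled at both times, by between 0.10 and 6.71 on the log2 scale.

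The next, miR-7071-3p from Heatr3, was at 0, 55.1 and 181 CPM (lowest, median, highest) at the start-point. At the end-point it was at 103, 649.8 and 4749 CPM. Of the 7 end-point libraries, 6 exceeded the highest start-point library. On the log2 scale the fold change was 4.18 ± 0.73 (SE), with an edgeR adjusted p of 0.00019, and of 0.0469 with the block. Without the second end-point library of mouse 1 the block no longer gave a call.

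The 3p arm of miR-6915, from Ankrd52, a regulatory subunit of protein phosphatase 6, ran from 150.3 to 807 CPM around a median of 218 CPM at the start-point. It ran from 624.6 to 3397 CPM around 1066 CPM at the end-point. Its groups overlapped in a narrow range. Its estimated log2 fold change was 2.78 ± 0.48 (SE), with an edgeR adjusted p of 0.00019, and of 0.0176 with the block.

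In miR-7020-3p, from Aldh4a1, a mitochondrial enzyme of proline breakdown, the start-point values were 17.5, 56.2 and 288 CPM. The end-point values were 34.2, 329 and 1238 CPM. There, 4 of 7 libraries stood above the start-point range, namely the shallow libraries 1, 3 and 7 and the deeper library 6. The others, all deeper, lay inside it. The log2 fold change was 2.62 ± 0.48 (SE), with an edgeR adjusted p of 0.000277, and of 0.0356 with the block.

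In the other 4 of these 8 members the call was lost with the block. The most abundant of them was miR-6959-3p, from Sbf1, a catalytically inactive relative of the myotubularin phosphatases. Its start-point levels were 1913, 3923 and 13163 CPM, and its end-point levels 2663, 15294 and 121349 CPM. The 2 highest values came from shallow end-point libraries 3 and 7. Its log2 fold change was 2.99 ± 0.60 (SE), with an edgeR adjusted p of 0.000782, and of 0.067 with the block. Without the libraries under 75000 counts it was 1.88, with an adjusted p of 0.00834.

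For miR-6953-3p the start-point values were 40.5, 62.9 and 310.0 CPM. At the end-point they were 0, 164 and 4902 CPM. One end-point library had no count and 3 exceeded every start-point library. The edgeR log2 fold change was 4.83 ± 0.84 (SE) with an adjusted p of 0.00019, and 2.77 with an adjusted p of 0.203 with the block.

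The remaining pair were miR-7074-3p, from the potassium-chloride cotransporter gene Slc12a4, and miR-6941-3p, from the Notch ligand gene Jag2. At the start-point miR-7074-3p was at 84.2, 158 and 303 CPM, and at the end-point at 155, 344 and 1232 CPM. It rose by 2.30 ± 0.45 (SE) on the log2 scale (edgeR adjusted p 0.000597, and 0.104 with the block). In 4 end-point libraries it lay above the start-point range. At the start-point miR-6941-3p was at 26.2, 66.3 and 139.6 CPM, and at the end-point at 12.4, 345 and 1553 CPM. It rose by 2.68 ± 0.56 (SE; edgeR adjusted p 0.000877, and 0.0654 with the block). Its 2 highest values came from shallow libraries 1 and 3, and without shallow libraries the log2 fold change was 1.50 with an adjusted p of 0.0405.

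The other 10 members called higher had log2 fold changes from 0.99 to 5.58 and adjusted p from 0.00187 to 0.0438.

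Among the 8 members with the smallest p of those lower at the end-point, 7 had no overlap between the times. In these 7, every end-point library lay below every start-point library. The 8 were picked by p from the same counts, so such separation follows largely from the choice. Over all smRNAs tested, picked without regard to p, 5.59% had no overlap.

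In miR-7084-3p, from an intron of the transcription elongation factor gene Elof1, the start-point values were 275, 1076 and 3882 CPM. The end-point values were 0, 49.4 and 92.8 CPM, which is 0 to 10 counts. No end-point library reached the lowest start-point one. EdgeR gave a log2 fold change of -4.04 ± 0.73 (SE), with an adjusted p of 0.000251, and of 0.0133 with the block.

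The 3p arm of miR-6943, from Grk6, a kinase of G protein-coupled receptors, went from 197, 427 and 2641 CPM to 15.7, 36.5 and 186 CPM. It fell by 3.73 on the log2 scale (SE 0.68, edgeR adjusted p 0.000257, and 0.0132 with the block). The gap between the groups was narrow, and the nearest end-point library was the shallowest, library 3.

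For miR-7042-3p, from Tatdn2, the values were 104, 268 and 642 CPM at the start-point. At the end-point they were 0, 12.4 and 33.8 CPM, with at most 4 counts in any library and none in 3. On the log2 scale the fold change was -3.67 ± 0.73 (SE), with an edgeR adjusted p of 0.000481, and of 0.0222 with the block. At such counts the end-point level lies at or below what 3 counts are worth in most of these libraries, and the size of the fold depends on the shallow libraries, since it was -2.80 without them.

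In miR-6960-3p, from Troap, a gene of the mitotic spindle, 112, 285 and 956 CPM at the start-point stood against 0, 18.5 and 51.3 CPM at the end-point. Its estimated log2 fold change was -3.38 ± 0.72 (SE), with an edgeR adjusted p of 0.000877, and of 0.0176 with the block. The counts were again few, at most 6 in an end-point library.

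Larger counts stood behind miR-7011-3p, from the semaphorin gene Sema4a. Its start-point values were 511, 2204 and 12077 CPM, and its end-point values 31.3, 231 and 402 CPM. The groups did not overlap. The log2 fold change was -3.92 ± 0.85 (SE), with an edgeR adjusted p of 0.00137, and of 0.0138 with the block.

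The abundant miR-6977-3p, from the receptor tyrosine phosphatase gene Ptprs, was at 1074, 2299 and 5693 CPM at the start-point. It was at 222, 433 and 861 CPM at the end-point, again without overlap. It fell by 2.04 on the log2 scale (SE 0.46, edgeR adjusted p 0.00184, and 0.0222 with the block).

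For miR-6955-3p, from Gga1, a clathrin adaptor at the Golgi, 269, 529 and 1271 CPM at the start-point stood against 0, 109.6 and 155 CPM at the end-point. The groups did not overlap, yet the call did not hold with the block. On the log2 scale the fold change was -2.48 ± 0.56 (SE), with an edgeR adjusted p of 0.0018, and of 0.069 with the block.

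**Figure D3:**
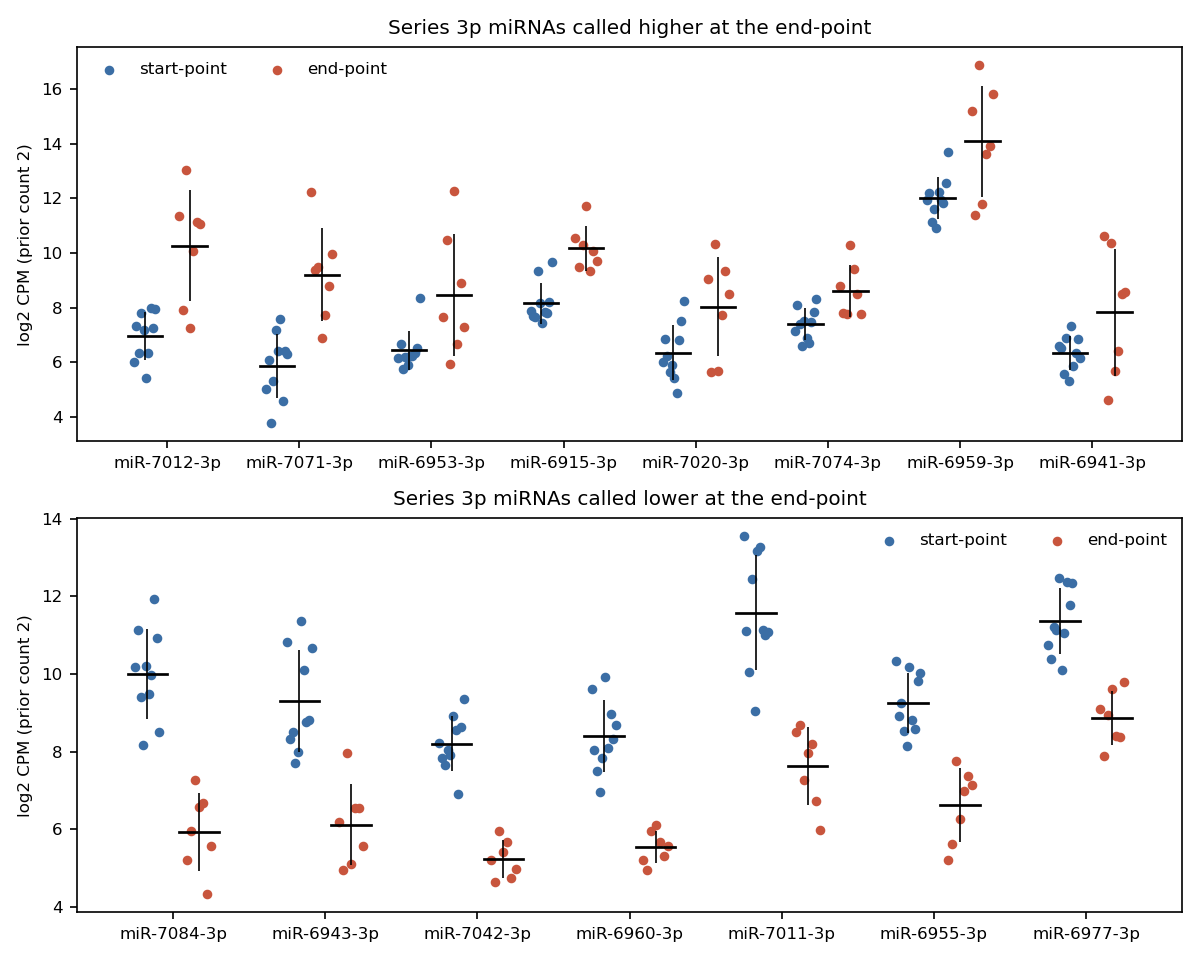
Points are libraries, with the level in log2 CPM (prior count of 2) on the vertical axis and 8 members called higher (top) and 7 called lower (bottom) on the horizontal axis; black bars are the mean and SD. In the lower panel the groups are apart in 6 members and touch in miR-6943-3p, where the prior count lifts shallow end-point library 3 above the lowest start-point library, whereas in the upper panel end-point libraries spread widely and overlap the start-point in all 8.

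A further 4 members were called with the block. The values of miR-6952-3p were 786, 2559.6 and 5820.4 CPM at the start-point and 18.3, 94.1 and 414 CPM at the end-point, without overlap (log2 fold change -3.05 ± 0.75, SE; edgeR adjusted p 0.00359, and 0.0469 with the block). Those of miR-7024-3p, from Nelfa, a subunit of the negative elongation factor, were 28.1, 105 and 404 CPM and then 0, 0 and 25.3 CPM, with no count in 4 of 7 end-point libraries. Its log2 fold change was -3.12 ± 0.81 (SE; edgeR adjusted p 0.00373, and 0.0408 with the block).

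Both miR-7066-3p, from the neurocan gene Ncan, and miR-7077-3p, from Cmip, were low in all end-point libraries but library 1. The first was at 137, 434 and 1593 CPM at the start-point and at 0, 17.1 and 402 CPM at the end-point (log2 fold change -2.78 ± 0.77, SE; edgeR adjusted p 0.00759, and 0.0222 with the block). The second was at 126, 243 and 451 CPM and then at 0, 15.7 and 347 CPM (-2.02 ± 0.66, SE; edgeR adjusted p 0.0192, and 0.0304 with the block). Without shallow libraries, library 1 among them, the folds were -3.60 and -2.72.

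The other 17 members called lower beyond the 8 with the smallest p had log2 fold changes from -3.12 to -1.21, and 15 of all 25 lower members had no count in some end-point library. Without the libraries under 75000 counts, 32 of the 43 members were still called, and 11 were not. The share of all smRNAs called in that run is not given, so the loss is not read as particular to the members. The log2 fold change without shallow libraries was 5.76 for miR-6953-3p, 3.40 for miR-6915-3p and 3.05 for miR-7074-3p. It was -3.41 for miR-7084-3p, -3.22 for miR-7011-3p, -2.58 for miR-6960-3p, -2.30 for miR-7024-3p and -2.20 for miR-6952-3p.

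The most abundant members behaved unlike one another. The 3p arm of miR-6979, the most abundant member, held 7511 CPM at the lowest, 69726 CPM at the median and 229734 CPM at the highest at the start-point. At the end-point it held 1503, 9761 and 19849 CPM, with 3 of 7 libraries below the start-point range. The lowest start-point library was number 10, a female one. Its estimated log2 fold change was -2.81 ± 0.94 (SE), with an edgeR adjusted p of 0.0242. The level was lower in all 6 mice sampled at both times, with log2 changes from -5.60 to -0.76, yet the adjusted p was 0.0861 with the block. It was 0.105 without shallow libraries, 0.0573 without end-point library 6 and 0.0576 without end-point library 7.

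The third in level, miR-7001-3p from the tetraspanin gene Cd82, spanned 768 to 61261 CPM at the start-point and 796 to 31441 CPM at the end-point, and the groups overlapped almost wholly. Its log2 fold change was 0.26 ± 0.85 (SE), with an edgeR adjusted p of 0.838. For miR-7003-3p, from Mybl2, a cell-cycle transcription factor, the ranges were 308 to 25143 CPM and 18.5 to 15470.3 CPM. Its log2 fold change was -0.43 ± 0.97 (SE), with an adjusted p of 0.753. Both vary between libraries of one time by more than they differ between times.

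In miR-7082-3p, from the RNA-binding protein gene Raver1, the values were 3056, 5528 and 9112 CPM at the start-point and 624, 1443 and 6466 CPM at the end-point. Of the 7 end-point libraries, 6 lay below the start-point range and library 1 lay inside it. The log2 fold change was -1.06 ± 0.49 (SE), with an edgeR adjusted p of 0.093, and without end-point library 1 it was -1.35 with 0.0441.

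In the groups CACCCUG and CUUCCAU, 1 member each was called between the times. The triplet with the seed CACCCUG comprised miR-7018-3p (Hspg2), miR-7068-3p (Cherp) and miR-7023-3p (Pik3cd, a lipid kinase subunit of leukocytes). The first fell, from 452, 769 and 1814 CPM to 68.4, 186 and 338 CPM without overlap (log2 fold change -1.61 ± 0.46, SE; edgeR adjusted p 0.0106, 0.0651 with the block, and 0.123 without shallow libraries). The second was at 1305, 2659 and 3498 CPM and then at 298, 639 and 3575 CPM, with 6 end-point libraries below and library 6 above the start-point range (-0.72 ± 0.55, SE; adjusted p 0.324). The least abundant, miR-7023-3p, was at 23.3, 90.2 and 396 CPM and then at 0, 42.2 and 164 CPM (-0.72 ± 0.55, SE; adjusted p 0.319). The differences between these folds were not tested.

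In the pair with the seed CUUCCAU, miR-7077-3p fell as described. Its partner miR-7048-3p, from Dedd2, was at 45.2, 236 and 801 CPM and then at 0, 76.0 and 475 CPM (-0.92 ± 0.61, SE; edgeR adjusted p 0.254). Both had their highest end-point value in library 1.

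Each hairpin gives a 5p arm as well, and the ratio of the arms within a library does not depend on the library scaling. The log2 of the 3p counts over the 5p counts, each with 0.5 added, was compared between times by an exact two-sided permutation test over all 19448 choices of 7 of 17 libraries, adjusted over 417 hairpins with both arms and a mean of at least 20 counts. Of the 140 members whose 5p arm was listed, 137 hairpins entered. The 3p arm held a median of 47.8% of a hairpin's counts, ranging from 5.33% for miR-6919 to 96.8% for miR-6959.

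The arm ratio differed in 41 of 137 series hairpins (29.9%), 19 toward the 3p arm and 22 away from it at the end-point. The background over all hairpins was 24.9%, and hairpins outside the series gave 63 of 280 (22.5%). Without shallow libraries 29 series hairpins were called, of which 17 were among the 41, and 24 of the 41 lost their call. The share over all hairpins in that run is not given. Within mice, sign-flip permutation over 6 mice cannot go below a p of 0.0312. After adjustment over 417 hairpins, any could pass only if most of them sat near that floor. That 0 passed therefore decides nothing. At an unadjusted sign-flip p under 0.05 were 27 of 137 series hairpins, and the share over all hairpins is not given.

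In 5 hairpins every end-point library lay on 1 side of every start-point library, against 3.6% of all 417 hairpins and 10 of the 280 outside the series. Each of the 5 had the smallest p the exact test can give, 5.14e-05 (adjusted 0.00143). Full separation forces that p, so these are 1 fact and not 2. The 5 were picked by p from the same counts, so their separation follows from the choice. Their sequences, with both arms in capitals, are given for the 3 of them that, besides miR-7012, had an entry.
miR-6959 hairpin: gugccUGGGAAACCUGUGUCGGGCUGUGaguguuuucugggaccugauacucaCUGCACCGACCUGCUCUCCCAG
miR-7009 hairpin: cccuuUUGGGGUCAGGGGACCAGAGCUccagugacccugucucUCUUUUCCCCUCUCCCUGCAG
miR-6998 hairpin: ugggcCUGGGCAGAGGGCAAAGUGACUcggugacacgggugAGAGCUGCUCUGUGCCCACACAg
The largest difference was in miR-6916. Its log2 3p to 5p ratio ran from -0.69 to 2.50 around a median of 0.98 at the start-point, and from -8.42 to -3.21 around -7.43 at the end-point. The mean difference was -7.51. The 3p arm was at 68.6 to 336 CPM and then at 92.7 to 270.1 CPM (log2 fold change 0.62 ± 0.38, SE; edgeR adjusted p 0.212), and without shallow libraries its log2 fold change was 1.15 with an adjusted p of 0.0235. The 5p arm went from 4 to 28 counts to between 69 and 7352 counts (log2 fold change 8.97 ± 0.83, SE; edgeR adjusted p 7.75e-08). The larger move was that of the 5p arm.

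In miR-7012 the ratio rose from between -2.18 and 0.94 to between 1.87 and 9.09, with a mean difference of 5.91. Here the arms moved apart, with log2 fold changes of 4.30 for the 3p arm and -2.21 for the 5p arm (edgeR adjusted p 3.15e-06 and 0.0132). The 5p arm had 1 to 47 counts at the start-point and 0 to 4 at the end-point.

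In miR-6959 the ratio rose from 2.68 to 6.34 at the start-point to 7.31 to 12.94 at the end-point, with a mean difference of 4.49. The highest ratios, 12.94 and 12.01, came from shallow end-point libraries 3 and 1. Without shallow libraries the mean difference was 2.90, with an adjusted p of 0.011 in the permutation test. In a library without a 5p count, the size of the ratio rests on the constant added to each count. The 5p arm had a log2 fold change of -1.57 (edgeR adjusted p 0.0573), with 0 to 10 counts at the end-point.

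In miR-7009, from the annexin A5 gene Anxa5, the ratio fell from 3.10 to 5.97 to between -1.95 and 1.14, a mean difference of -4.45. The 3p arm was at 768 to 2536 CPM and then at 360.2 to 1367 CPM (log2 fold change -0.21 ± 0.45, SE; edgeR adjusted p 0.742), and the 5p arm rose by 4.48 (edgeR adjusted p 3.9e-07).

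In miR-6998, from Fubp3, the ratio rose from between -6.38 and -2.08 to between -1.78 and 4.58, a mean difference of 4.23. Its 3p arm had 0 to 10 counts at the start-point and 2 to 131 at the end-point and did not pass the filter of the time test. Its 5p arm fell, with a log2 fold change of -1.44 (edgeR adjusted p 0.0156).

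**Figure D4:**
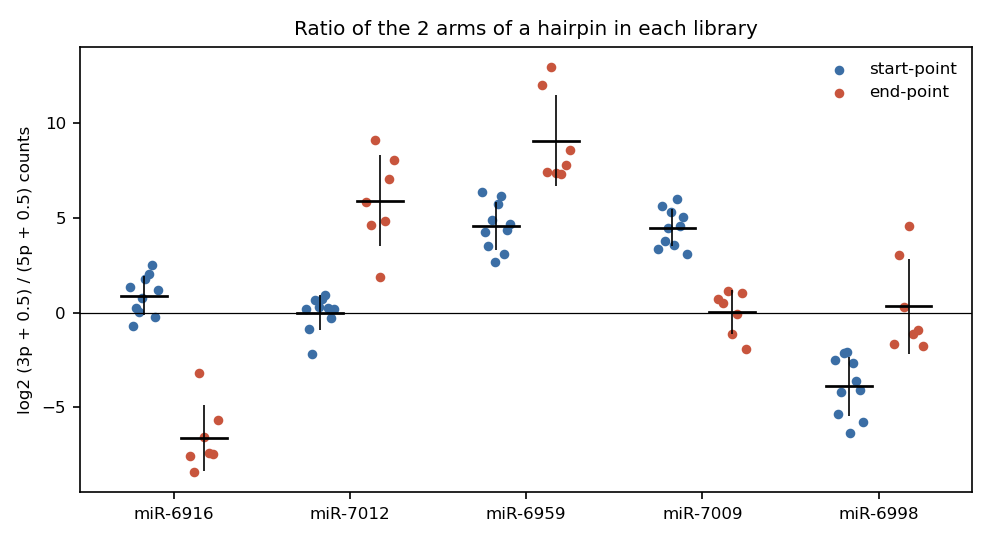
Points are libraries, with the log2 ratio of 3p to 5p counts (0.5 added to each) on the vertical axis for 5 series hairpins on the horizontal axis; black bars are the mean and SD and the line at 0 marks equal arms. In every hairpin shown the start-point and end-point libraries are apart, downward for miR-6916 and miR-7009 and upward for miR-7012, miR-6959 and miR-6998.

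Over the 118 series hairpins with both arms in the time test, 40 of the 3p arms and 42 of the 5p arms were called. Both arms were called in the same direction in 7 and in opposite directions in 7. The 3p arm alone was called in 26, the 5p arm alone in 28 and neither in 50. Among 216 hairpins outside the series the counts were 17 in the same direction, 15 in opposite directions, 46 with the 3p arm alone, 39 with the 5p arm alone and 99 with neither. Across the 118 series hairpins, which share their libraries and scaling, the log2 fold changes of the arms had a Pearson r of 0.018, given as a description. Opposite calls besides miR-7012 included miR-7011, whose 3p arm fell by 3.92 on the log2 scale while its 5p arm rose by 1.64 (edgeR adjusted p 0.0151), and miR-7074, whose 5p arm had a log2 fold change of -1.57 (adjusted p 0.0426). Same-direction calls included miR-7018, whose 5p arm had a log2 fold change of -2.89 (edgeR adjusted p 0.00155), miR-6941 with 2.25 (0.00663) and miR-6953 with 1.67 (0.00492).

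**Figure D5:**
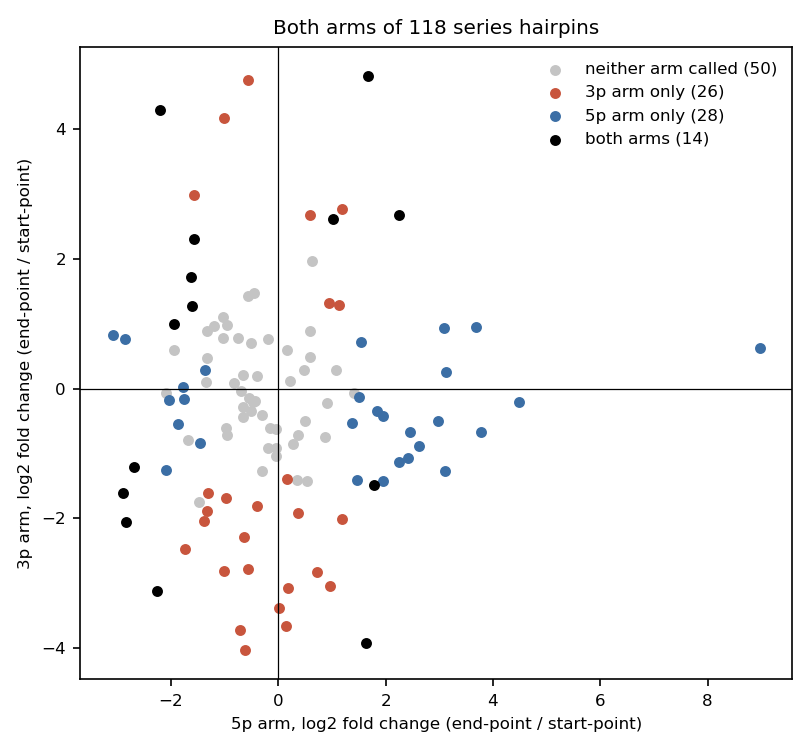
Each point is 1 of 118 series hairpins, with the log2 fold change (end-point over start-point) of its 5p arm on the horizontal and of its 3p arm on the vertical axis, coloured by which arm was called at an adjusted p under 0.05. The points do not follow a diagonal, and those with 1 arm called lie along both axes.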

How the data were processed

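The authors deposited whole-number counts per smRNA for 17 libraries, with no normalization. Per the submitters' processing notes, bcl2fastq was used and the build was GRCm38; the aligner, the counter, the use of the kit's molecular identifiers and the handling of reads that match several miRNAs or the host intron are not given in the sources used here. The members and lists were chosen with earlier results of these data known. Libraries were grouped by labelled time.

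Counts were fitted with edgeR 4.0.16 in R 4.3.3 (glmQLFit, legacy off, TMM factors, filterByExpr). On simulated counts for 1270 smRNAs the fit recovered 76.1% of log2 changes of 2 and 98.9% of changes of 3, with 2.99% of its calls false. The common biological coefficient of variation was 0.794. The arm test recovered 99.0% of 100 simulated log2 changes of 4 in 417 hairpins, with 2.94% of its calls false. The simulated smRNA counts were scaled by library totals alone, whereas TMM factors here ran from 0.42 (end-point library 2) to 1.92 (start-point library 10). Each simulation gave both times the same spread and no pairing by mouse, so the rates may not hold for these data. In miR-7012, for example, the SD of the log2 ratio was 0.92 at the start-point and 2.42 at the end-point. In miR-7071 it was narrower at the end-point. CPM values use library totals, while folds include TMM factors.

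Members named were the 8 with the smallest p in each direction, the 8 most abundant, those called with the block, the 5 hairpins with the smallest arm p, seed partners, and the lowest and highest 3p share; miR-7012-3p, for example, meets several. Of the 8 lower ones, 1 is not reported here. Members given besides these (miR-7025-3p, miR-7011 and miR-7074 5p arms, and others) were chosen after their values were seen. Pairing across times comes from mouse identity: 7 pairs of libraries from 6 mice had a mean correlation of deviations of 0.0944 (-0.0658 to 0.262). Intervals for counts cover counting error only. RefSeq sequences are of build GRCm38.p6. Alternatives used DESeq2 1.42.0 and limma 3.58.1, other scalings and filters, and left out libraries.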

Additional observations from a re-analysis of the deposited data

Results flagged for a closer look

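Single libraries stood apart within a time group in 4 of 78 groups tested, and chance flags about 1 group in 20. The level of miR-6953-3p was highest in start-point library 10, at 8.34 log2 CPM, with the next library at 6.68. End-point library 1 was highest for 3 members. It was at 9.00 log2 CPM for miR-7048-3p (next 6.63), at 8.78 for miR-7066-3p (next 5.95) and at 8.58 for miR-7077-3p (next 5.95). Library 1 is one of the shallow ones.

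The change of miR-6916-3p within mice went in opposite directions in the sexes. It was positive in all 4 males and negative in both females, with means of 0.73 and -1.09 on the log2 scale, which differ by 1.82. This difference was not tested. Only the members chosen for description were searched for such a split, and no rate by chance is given. Outside that choice, miR-7045-3p and miR-6901-3p also had positive changes in all 4 males and negative ones in both females. The split is thus not particular to miR-6916-3p.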

How the results depend on the processing

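The 43 members called kept their direction in every alternative that tested them, 31 were called in every run without 1 library, and 12 in every alternative. Leaving out 1 library at a time gave 36 to 49 members and 37 to 47 hairpins. With the replicate block on mouse 15 members were called, 14 without the second end-point library of mouse 1 and 15 with end-point library 2 taken as mouse 2. Male libraries alone gave 25 members and 13 hairpins. For males alone, for the variants of the block and for the runs without 1 library, shares over all smRNAs or all hairpins are not given. The same holds for the 31 and the 12 members. The block by within-mouse sign flips gave 0 hairpins by permutation, where the floor on p left little room for any. The 27 of 137 at an unadjusted p under 0.05 stand without a share over all hairpins. The difference in share without miR-6979-3p was 0.890 percentage points and -0.828 without end-point library 3 as well, an alternative chosen after seeing the data, and the difference in members detected with at least 3 counts was -28.9. The causes were not tested.

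Members without a call changed sign, all as log2 fold changes. With library totals miR-7001-3p was at -0.36 and miR-7003-3p at 0.0890. Leaving out 1 library at a time gave -0.20 (end-point 5) to 1.02 for miR-7001-3p, -0.88 to 0.72 (start-point 7) for miR-7003-3p and -0.48 to 0.0925 (end-point 7) for miR-7009-3p, which was at 0.0145 without start-point library 2. For miR-7003-3p, limma-voom gave 0.18 and the random block 0.18, the block 0.23, 0.91 without the second library of mouse 1 and 0.27 with library 2 as mouse 2. Leaving out shallow libraries gave 0.46 for miR-7009-3p and 0.10 for miR-7068-3p, and males alone gave 0.0221 for miR-7048-3p.

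Depth limits the low members: 3 counts are worth up to 92.8 CPM, and shallow libraries occur at the end-point only, so depth and time cannot be told apart there.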

Other observations

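Other intron-derived miRNAs outside the numbered series were listed for 6 of 6 arms chosen (both arms of miR-702, miR-877 and miR-1224). Of these, miR-702-5p was called higher (log2 fold change 1.26, edgeR adjusted p 0.0176) and miR-877-5p lower (-1.11, adjusted p 0.0422). Their 3p arms were not called: the log2 fold changes were -0.77 for miR-702-3p, 0.01 for miR-877-3p and 0.40 for miR-1224-3p.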
